A study of Homo sapiens with 6 samples.

Results

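The human mitochondrial genome, chrM, carries 37 genes, and all of them were found among the 58676 gene IDs of the table. They were chosen by their position on chrM in GENCODE release 29 (GRCh38), not by their values. They comprise 13 mRNA genes, 2 rRNA genes and 22 tRNA genes. RNA came from a human cell line labelled HCC and grown in DMEM with serum. Of the libraries analysed here, 3 are labelled control and 2 knockdown (replicates 1 and 3, with the word sponge in their titles). The series title speaks of cells treated with miR-19a, while the sample labels speak of a knockdown, and neither names its target. Sponges are in general transcripts with sites that soak up a microRNA. The labels name neither the cell line nor the vector of either group, and do not say whether replicates were separate cultures. P-values then measure the spread of these libraries alone, and that spread may be technical. Knockdown replicate 2 was left out, because its values are not in the order of the gene IDs beside them.

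The mitochondrial genome is a small circle present in many copies per cell. A single RNA polymerase, POLRMT, copies both strands into long precursors. Most mRNAs and both rRNAs are flanked by tRNAs, and the precursors are cut at the tRNA ends by RNase P and ELAC2. The mRNAs encode core subunits of respiratory complexes I, III and IV and of the ATP synthase, complex V. The rRNAs form the mitochondrial ribosome, and the tRNAs serve translation inside the organelle. All other proteins of these complexes are encoded in the nucleus. In liver cells, which are rich in mitochondria, these transcripts are among the most abundant of the cell.

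Values are RPKM, reads scaled to exon length and to the reads assigned to genes, and the reads behind them could be recovered. Assigned reads ranged from 1948940 in control replicate 2 to 19605312 in control replicate 3. Control replicate 2, the shallowest library, stood apart from the other 4 on the first principal component (66.5% of the variance). Results that rest on it are given with and without it. All 14 hepatocyte markers were detected, with ALB at 652 to 951 RPKM. Of these 14, 2 were higher and 1 lower by unadjusted p, and 0 were called. Over all genes tested 3.8% were higher and 2.54% lower by unadjusted p. The leukocyte marker PTPRC lay between 0 and 0.0713 RPKM, HBB was at 0 in all 5 libraries, CD14 was at 28.6 to 38.4 RPKM and LYZ at 8.59 to 11.6 RPKM. The blood markers CD3D (log2 difference 0.63) and HBA1 (0.69) were higher in knockdown by unadjusted p and not called, with a limma adjusted p of 0.71 for both. Both were low, CD3D at 3.07 to 6.14 RPKM and HBA1 at 0.672 to 1.89 RPKM (2 to 24 reads). CD68 and CD79A were at most 0.234 and 0.0876 RPKM. The part of such markers in the results was not tested. The 8 blood markers summed to 45.5 to 52.1 RPKM in control and 47.8 to 54.3 in knockdown, and endothelial markers summed to at most 0.760 RPKM. Fibroblast markers summed to 63.9 to 83.7 RPKM in control and 68.4 to 72.5 in knockdown. Most of each sum was LUM, at 53.5 to 68.3 RPKM over the 5 libraries. COL1A2 was at 7.54 to 14.7 RPKM, while COL3A1 and DCN were at most 0.157 and 0.0102 RPKM.

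Sequences of members matter here in 2 ways, because neighbouring genes share bases and because the nucleus holds near-identical copies. MT-ATP8 and MT-ATP6 overlap by 46 bases, which is 22.2% of MT-ATP8, and MT-ND4L and MT-ND4 by 7 bases. Reads in the shared bases cannot be given to 1 gene with certainty, and how they were counted is not given in the sources used here. The stretches are shown from GENCODE release 29, 5′ to 3′ on the + strand, with the shared bases in capitals.
MT-ATP8 and MT-ATP6 (chrM:8497-8602): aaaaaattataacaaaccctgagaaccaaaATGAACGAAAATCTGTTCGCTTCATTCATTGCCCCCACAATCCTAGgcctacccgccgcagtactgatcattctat
MT-ND4L and MT-ND4 (chrM:10730-10796): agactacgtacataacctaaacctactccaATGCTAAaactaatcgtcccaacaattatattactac
The capitals open with the start codon of the second gene of each pair.

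A window of MT-ATP6 is set beside its copy MTATP6P1 on chromosome 1 (ENSG00000248527) to show how alike member and copy are. The base that differs is in capitals.
MT-ATP6 (chrM:8527-8586, + strand): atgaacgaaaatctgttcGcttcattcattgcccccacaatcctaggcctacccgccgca
MTATP6P1 (chr1:633696-633755, + strand): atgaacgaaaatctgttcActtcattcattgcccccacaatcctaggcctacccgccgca
In all, the copy differed from the gene at 10 of 681 bases, an identity of 98.5%, with the longest identical run at 141 bases. Levels of members with such copies are therefore uncertain.

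The first question was how much of each library the mitochondrial genes took. They held 7.40, 10.4 and 4.94% of assigned reads in control replicates 1, 2 and 3 and 8.30 and 7.83% in knockdown replicates 1 and 3. The 95% Wilson intervals were no wider than 0.0428 percentage points to either side, covering counting error only. Both knockdown libraries lay inside the range of the controls, so the groups overlapped. The means were 7.57 ± 2.72% (SD, n = 3) in control and 8.06 ± 0.333% (SD, n = 2) in knockdown. Their difference of 0.49 percentage points was smaller than the SD of the controls. It was 1.89 without control replicate 2, the library of highest share, and -0.82 without control replicate 3, the library of lowest share. The shallowest library thus had the highest share and the deepest the lowest, and the part of depth in this was not tested. In bulk RNA, fewer cells of a type and less RNA per cell cannot be told apart, nor can fewer mitochondrial transcripts and more of other RNA.

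By class, mRNA genes took 6.37, 9.42 and 4.14% of assigned reads in control and 7.12 and 6.64% in knockdown. The rRNA genes took 1.004, 0.925 and 0.783% and 1.16 and 1.17%, so that both knockdown libraries lay above all 3 controls. MT-RNR2 separated in this way, while MT-RNR1 overlapped. Among the RPKM of all genes tested, 14.3% had both knockdown libraries above all 3 controls. The 22 tRNA genes together took 0.0191, 0.0259 and 0.0177% and 0.0197 and 0.0193%, and these values overlapped. Among the mRNAs, complex IV held the largest part, at 3.38, 4.59 and 2.11% of assigned reads in control and 3.42 and 3.30% in knockdown. Its group means were 3.36% and 3.36%. Complex I, with 7 genes, held 2.38, 3.67 and 1.62% in control and 2.95 and 2.58% in knockdown. In the most abundant 20 genes of the table per length, 12 were members in each of the 5 libraries.

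**Figure D1:**
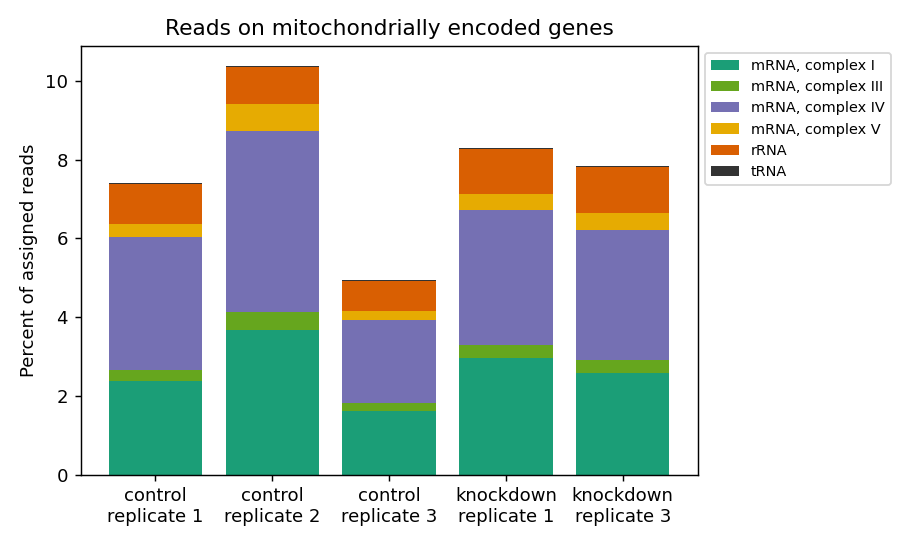
Percent of assigned reads (y axis) on mitochondrially encoded genes in each of the 5 libraries (x axis), stacked by the complex of the mRNA and by RNA class. Control replicate 2 reaches 10.4% and control replicate 3 stops at 4.94%, with both knockdown libraries between them, while the rRNA segment is taller in both knockdown libraries than in any control.

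The second question was whether single members differed between knockdown and control. None of the 36 members tested passed limma (Benjamini-Hochberg adjusted p under 0.05), and 0% of the 15408 genes tested in the whole table were called. The remaining member, MT-TW, missed the filter of 0.5 RPKM in 3 libraries, with 0, 0 and 4 reads in control and 0 and 4 in knockdown. Adjusted p in limma ran from 0.712 to 0.980 over the mRNAs, and 0.712 was also the lowest of all members. Members at an unadjusted p under 0.05 numbered 0 in limma, against 3.8% of all genes in the higher and 2.54% in the lower direction. In limma voom on the recovered reads 0 members were called at the same threshold, and by unadjusted p 1 member was higher and 0 lower, beside 4.86% and 5.71% of all genes in that fit. Without control replicate 2, limma called 0 members, and by unadjusted p 5 of 36 were higher and 0 lower, beside 4.67% and 4.02% of all genes. These 5 were the tRNA genes MT-TK, MT-TT, MT-TQ, MT-TM and MT-TR, with 0 to 22 reads per library in that fit. No mRNA or rRNA gene was among them. For 4 of the 37 members (10.8%) the knockdown libraries both exceeded every control, and for 0 both were under every control. Over all genes tested the shares were 14.3% and 13.6%. The first count is thus near its background, and the second is 0 of 37 beside a background of 13.6%, over members that share precursors and are not independent. The 4 are MT-ND3, MT-RNR2, MT-TP and MT-TR.

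Over the 13 mRNA genes the log2 difference on the log2(RPKM + 0.5) scale was above 0 for 10, with a median of 0.21, beside a median of -0.0002 over all genes tested. Without control replicate 2 it was above 0 for 13 of 13, with a median of 0.52. Without control replicate 3 the median was -0.11. In the levels, control replicate 2 was the highest of the 5 libraries for 11 of the 13 mRNAs, and control replicate 3 the lowest for all 13. The range given with a log2 difference of a member is over fits that each leave out 1 of the 5 libraries. On values scaled to reads outside chrM 4 members again had knockdown above all controls.

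Complex IV, cytochrome c oxidase, passes electrons to oxygen, and its mitochondrial subunits gave the most abundant messages. MT-CO1 (ENSG00000198804, chrM from 5904 to 7445, + strand), which holds the catalytic heme and copper centre, was at 13861, 17312 and 8763 RPKM in control and 13119 and 11618 RPKM in knockdown. Both knockdown libraries lay between control replicates 3 and 2, and the log2 difference was -0.05 (SE 0.50) with a limma adjusted p of 0.980. With 1 library left out it ran from -0.33 (without control replicate 3) to 0.16 (without control replicate 2). MT-CO2 (ENSG00000198712, chrM from 7586 to 8269, + strand), the subunit that takes electrons from cytochrome c, was at 10565, 19055 and 6159 RPKM in control and 11950 and 12986 RPKM in knockdown. Control replicate 2 was the highest and control replicate 3 the lowest, with a log2 difference of 0.21 (SE 0.60) that ran from -0.19 (without control replicate 3) to 0.63 (without control replicate 2). MT-CO3 (ENSG00000198938, chrM from 9207 to 9990, + strand), the third core subunit, was at 6629, 7934 and 4298 RPKM in control and 7453 and 7873 RPKM in knockdown, again overlapping. Its log2 difference was 0.33 (SE 0.42) and ran from 0.079 (without control replicate 3) to 0.52 (without control replicate 2).

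Complex I, NADH dehydrogenase, has 7 subunits encoded on chrM, all in its membrane arm. MT-ND3 (ENSG00000198840, chrM from 10059 to 10404, + strand) was at 1733, 1777 and 1045 RPKM in control and 2200.2 and 2445 RPKM in knockdown. Both knockdown libraries lay above every control, and the means were 1518 ± 410.1 RPKM over the controls (SD, n = 3) against 2323 ± 173 RPKM after knockdown (SD, n = 2). Its log2 difference of 0.65 (SE 0.34) had the lowest adjusted p of the mRNAs, 0.712 in limma, and did not pass. It ran from 0.40 (without control replicate 3) to 0.79 (without control replicate 2). MT-ND1 (ENSG00000198888, chrM from 3307 to 4262, + strand), part of the ubiquinone site, was at 2118, 2654 and 1783 RPKM and 2429 and 2466 RPKM, with the knockdown libraries inside the range of the controls. MT-ND2 (ENSG00000198763, chrM from 4470 to 5511, + strand), a proton-pumping subunit, was at 2762, 3632 and 2067 RPKM in control and 3551 and 3306 RPKM in knockdown, where control replicate 2 was again the highest. The log2 difference of MT-ND1 was 0.18 (SE 0.30) and ran from 0.046 (without control replicate 3) to 0.33 (without control replicate 2) with 1 library left out. That of MT-ND2 was 0.32 (SE 0.36) and ran from 0.11 (without control replicate 3) to 0.52 (without control replicate 2).

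MT-ND4 (ENSG00000198886, chrM from 10760 to 12137, + strand) and MT-ND5 (ENSG00000198786, chrM from 12337 to 14148, + strand), both proton-pumping subunits, are long genes in the later part of the heavy-strand transcript. MT-ND4 was at 6412, 12290.2 and 3896 RPKM in control and 8475 and 8025 RPKM in knockdown. MT-ND5 was at 3190.2, 4290.0 and 2289 RPKM in control and 3446 and 2414 RPKM in knockdown. Neither separated the groups. The log2 difference of MT-ND4 was 0.29 (SE 0.58) and ran from -0.11 (without control replicate 3) to 0.72 (without control replicate 2). For MT-ND5 it was -0.13 (SE 0.40) and ran from -0.38 (without knockdown replicate 1) to 0.13 (without knockdown replicate 3). MT-ND4L (ENSG00000212907, chrM from 10470 to 10766, + strand), a small membrane subunit, was at 6481, 7899 and 4357 RPKM in control and 9038 and 4383 RPKM in knockdown. Knockdown replicate 1 was the highest library for MT-ND4L and knockdown replicate 3 the next to lowest, and the log2 difference of 0.05 (SE 0.50) ran from -0.47 (without knockdown replicate 1) to 0.58 (without knockdown replicate 3). MT-ND6 (ENSG00000198695, chrM from 14149 to 14673, - strand), the single mRNA gene annotated on the - strand, was at 3356, 5121 and 2209 RPKM in control and 4111 and 4626 RPKM in knockdown. Its log2 difference of 0.38 (SE 0.45) ran from 0.073 (without control replicate 3) to 0.68 (without control replicate 2). Without a stated use of strand in counting, reads of MT-ND6 and of its opposite strand cannot be told apart.

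Complex III moves electrons from ubiquinol to cytochrome c and carries 1 mitochondrial subunit, cytochrome b. The gene of cytochrome b, MT-CYB (ENSG00000198727, chrM from 14747 to 15887, + strand), was at 2489.8, 4152 and 1773 RPKM in control and 3002 and 2822 RPKM in knockdown, with overlapping groups. The log2 difference of 0.14 (SE 0.43) ran from -0.14 (without control replicate 3) to 0.47 (without control replicate 2) with 1 library left out. Complex V carries a pair of subunits of its membrane part, encoded by the overlapping genes MT-ATP8 and MT-ATP6. MT-ATP6 (ENSG00000198899, chrM from 8527 to 9207, + strand) was at 4556, 7960.2 and 2975 RPKM in control and 5530.0 and 6176 RPKM in knockdown, and its log2 difference of 0.30 (SE 0.51) ran from -0.043 (without control replicate 3) to 0.67 (without control replicate 2). MT-ATP8 (ENSG00000228253, chrM from 8366 to 8572, + strand) was at 859, 6709.9 and 528 RPKM in control and 1025 and 690.1 RPKM in knockdown. Control replicate 2 stood far above the other 4 libraries for MT-ATP8, with 2707 reads, more than any of the deeper libraries (1632 to 2171 reads). The log2 difference of -0.78 (SE 1.11) ran from -1.51 (without control replicate 3) to 0.32 (without control replicate 2), so its direction rests on that library. In limma the adjusted p of these 3 genes was 0.936, 0.888 and 0.859.

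The rRNA genes lie at the start of the heavy-strand transcript, with the tRNA gene MT-TV between them. MT-RNR2 (ENSG00000210082, chrM from 1671 to 3229, + strand), the rRNA of the large ribosomal subunit, was at 5427, 5143 and 4367 RPKM in control and 6559.6 and 6568 RPKM in knockdown. Both knockdown libraries lay above all controls, and the means were 4979 ± 549 RPKM over the controls (SD, n = 3) against 6564 ± 6.01 RPKM after knockdown (SD, n = 2). The log2 difference was 0.40 (SE 0.34), with a limma adjusted p of 0.772, and ran from 0.31 (without control replicate 3) to 0.47 (without control replicate 1). MT-RNR1 (ENSG00000211459, chrM from 648 to 1601, + strand), the rRNA of the small subunit, was at 1652, 1290.3 and 1069 RPKM in control and 1440.2 and 1580.2 RPKM in knockdown, where the groups overlapped. Its log2 difference of 0.20 (SE 0.29) ran from 0.047 (without control replicate 3) to 0.36 (without control replicate 1). Control replicate 2 was the highest library for 0 of the rRNAs.

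**Figure D2:**
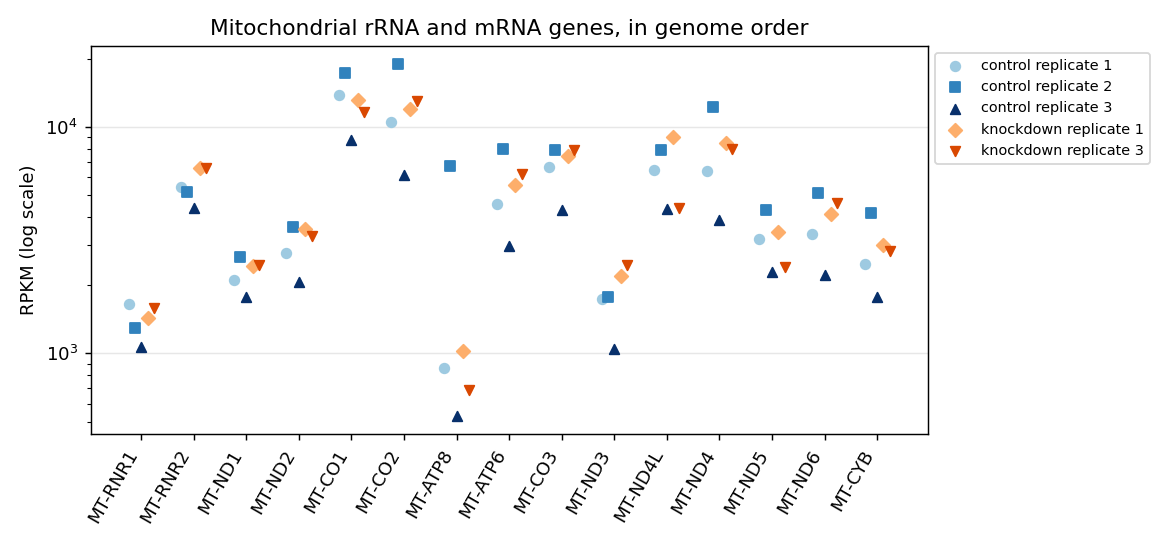
RPKM on a log axis for the 2 rRNA and 13 mRNA genes in genome order (x axis), 1 point per library. Control replicate 3 (dark triangles) is the lowest library for each of the 15 genes, control replicate 2 (squares) tops most mRNAs and stands alone for MT-ATP8 at 6709.9 RPKM, and the knockdown points top all controls for MT-RNR2 and MT-ND3.

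**Figure D3:**
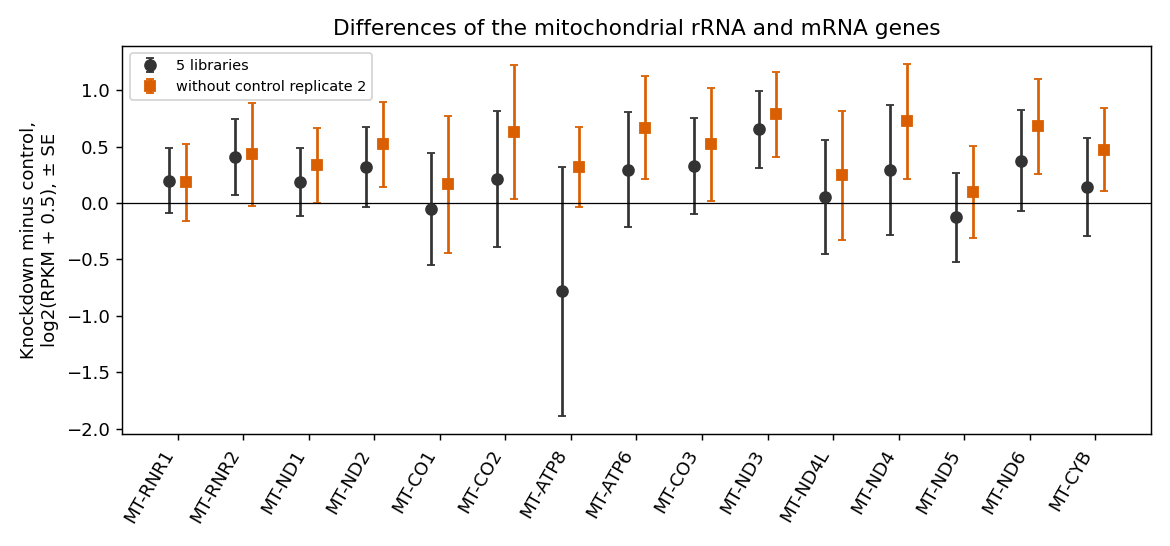
Knockdown minus control on the log2(RPKM + 0.5) scale with its limma SE (y axis) for each rRNA and mRNA gene (x axis), from 5 libraries (circles) and without control replicate 2 (squares). The median over the 13 mRNAs is 0.21 with 5 libraries and 0.52 without that library, and MT-ATP8 goes from -0.78 to 0.32.

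Per length, MT-CO1 and MT-CO2 were the 2 most abundant members in every library, but their order was not fixed, since MT-CO1 lay above MT-CO2 in 3 of 5 libraries. MT-CO2 lay above MT-ND4, the next by geometric mean, in 5 of 5. MT-ND4, MT-CO3, MT-ND4L and MT-RNR2 followed with geometric means of 7310.5 to 5547 RPKM, and each of the first 3 of these lay above its next neighbour in 3 of 5 libraries only. MT-ATP6, at 5168 RPKM, lay above MT-ND6 in 5 of 5. MT-ND6, MT-ND5, MT-ND2 and MT-CYB came next at 3730.0 to 2743 RPKM, and MT-ND5 lay above MT-ND2 in 3 of 5. MT-ND1 at 2268 RPKM lay above MT-ND3 in 5 of 5. MT-RNR1 at 1389.7 RPKM and MT-ATP8 at 1166 RPKM closed the order, and control replicate 2 was the exception in which MT-ATP8 ranked 7. This is an order of reads in these libraries. The part of library preparation in the levels of rRNA and tRNA genes was not tested.

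The share of each member among mitochondrial reads separates the makeup of these transcripts from their total. These shares are compositional, and no test was run on them. No background of separated groups was taken for shares. Among the RPKM of all genes tested, 14.3% had both knockdown libraries above all controls and 13.6% below. MT-CO1 held 28.9, 25.7 and 27.3% of mitochondrial reads in control and 24.4 and 22.9% in knockdown, below all 3 controls in both libraries. MT-CO3 held 7.03, 5.999 and 6.81% in control and 7.04 and 7.88% in knockdown, above all controls. Together the complex IV genes held 45.7, 44.3 and 42.7% in control and 41.3 and 42.1% in knockdown, below all controls. Set against mRNA reads alone, the complex IV groups overlapped, at 53.04, 48.8 and 50.9% and 48.1 and 49.7%. MT-CO1 also overlapped on that scale, at 33.5, 28.3 and 32.6% and 28.4 and 27.00%, while MT-CO3 stayed above all controls, at 8.16, 6.60 and 8.13% and 8.21 and 9.30%. For complex IV and MT-CO1 the separation therefore depends on the denominator.

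Further members with separated shares were MT-ND2, MT-ND3 and MT-ND6, subunits of complex I, and the remaining rRNA and mRNA genes overlapped. MT-ND3 held 0.811, 0.593 and 0.731% of mitochondrial reads in control and 0.917 and 1.08% in knockdown. For MT-ND2 the shares were 3.89, 3.65 and 4.36% and 4.46 and 4.40%, and for MT-ND6 they were 2.38, 2.59 and 2.35% and 2.60 and 3.10%. In these 3 genes both knockdown libraries lay above all controls. Against mRNA reads MT-ND3 and MT-ND6 again did so, whereas MT-ND2 overlapped, at 4.517, 4.019 and 5.198% and 5.197 and 5.192%. The 7 complex I genes together overlapped, at 32.2, 35.4 and 32.7% in control and 35.6 and 32.97% in knockdown. The rRNA share was 13.6, 8.92 and 15.8% in control and 13.98 and 15.00% in knockdown, with control replicate 2 the lowest. The tRNA share was 0.258, 0.249 and 0.357% in control and 0.237 and 0.246% in knockdown, under every control in both, but overlapped against mRNA reads, at 0.299, 0.275 and 0.426% and 0.276 and 0.291%. The group difference in rRNA share was 1.72 percentage points, and -0.21 without that library.

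Ratios between members were taken within each library. MT-ATP8 over MT-ATP6, which lie on 1 message, was 0.188, 0.843 and 0.177 in the controls and 0.185 and 0.112 in knockdown. Control replicate 2 was high and knockdown replicate 3 low, with the other 3 libraries close together. MT-ND4L over MT-ND4, also a shared message, was 1.01, 0.643 and 1.12 in control and 1.07 and 0.546 in knockdown. Here control replicate 2 and knockdown replicate 3 lay below the other 3 libraries, so the 2 knockdown libraries differed from each other more than the group means did. MT-ND6 over MT-ND5, which lie on opposite strands, was 1.05, 1.19 and 0.965 in control and 1.19 and 1.92 in knockdown. Knockdown replicate 3 was the highest of all, while knockdown replicate 1 lay just under control replicate 2.

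In 2 of the ratios taken both knockdown libraries lay above all controls, and in the others the groups overlapped. Among the RPKM of all genes tested, 14.3% had both knockdown libraries above all controls, and no background was taken for ratios. MT-RNR2 over MT-RNR1 was 3.29, 3.99 and 4.09 in control and 4.55 and 4.16 in knockdown. MT-CO3 over MT-CO1 was 0.478, 0.458 and 0.490 in control and 0.568 and 0.678 in knockdown, with controls that differed by an SD of 0.0163. MT-CO2 over MT-CO1 was 0.762, 1.10 and 0.703 in control and 0.911 and 1.12 in knockdown and overlapped. The last 2 ratios were picked after their values were seen.

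**Figure D4:**
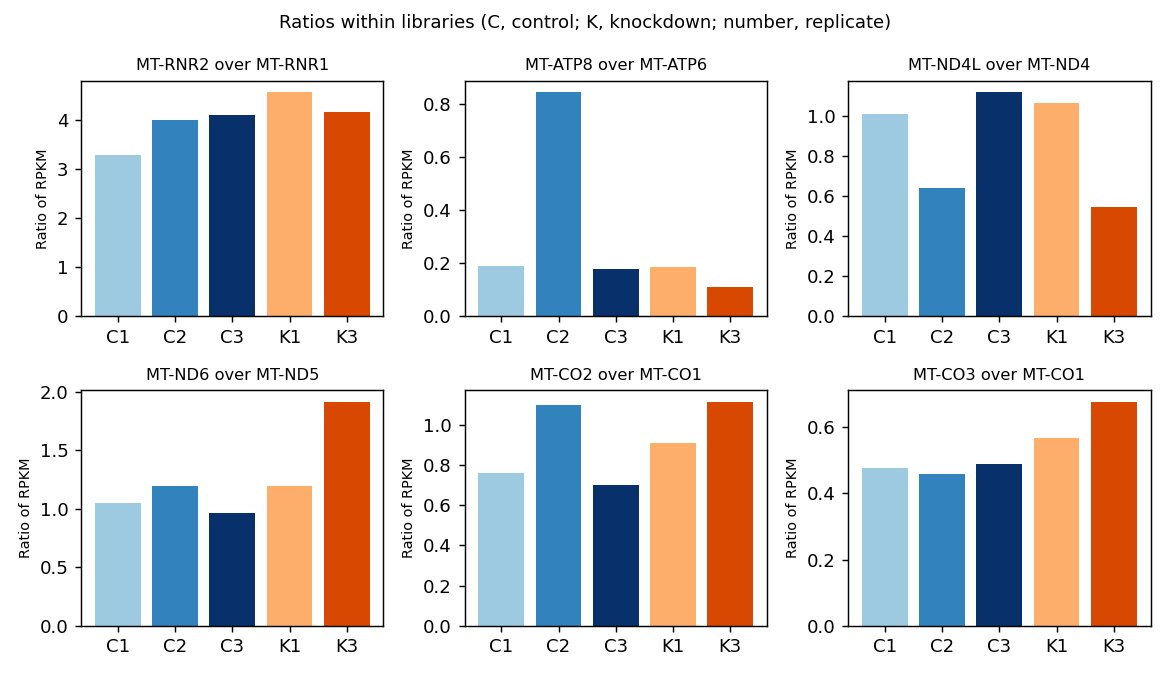
Ratio of RPKM between members (y axis) in each library (x axis; C control, K knockdown, with the replicate number), 1 panel per pair. MT-ATP8 over MT-ATP6 reaches 0.843 in control replicate 2 alone, MT-ND6 over MT-ND5 reaches 1.92 in knockdown replicate 3 alone, and MT-CO3 over MT-CO1 is higher in both knockdown libraries than in the controls.

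The 22 tRNA genes were read rarely, with 504 reads in all in control replicate 2 and 3461 in control replicate 3. Most of them came from 4 genes, shown here since they carry the tRNA signal, 5′ to 3′ from GENCODE release 29 with the anticodon in capitals.
MT-TN (chrM:5657-5729, - strand): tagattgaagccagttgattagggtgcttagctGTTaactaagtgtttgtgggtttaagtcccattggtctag
MT-TP (chrM:15956-16023, - strand): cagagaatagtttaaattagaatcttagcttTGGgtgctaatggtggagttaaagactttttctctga
MT-TC (chrM:5761-5826, - strand): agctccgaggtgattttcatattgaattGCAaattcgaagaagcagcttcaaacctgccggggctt
MT-TA (chrM:5587-5655, - strand): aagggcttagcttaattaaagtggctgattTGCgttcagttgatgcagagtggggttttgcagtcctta
These 4 genes and 4 others (MT-TQ, MT-TY, MT-TS1 and MT-TE) are annotated on the - strand, and the remaining 14 on the + strand. The - strand genes held 96, 96.03 and 94.05% of tRNA reads in control and 95.02 and 92.7% in knockdown. MT-TA, MT-TN, MT-TC and MT-TY stand side by side between MT-ND2 and MT-CO1 on chrM. Reads of either strand in this stretch cannot be told apart, since the counting is not stated to use strand.

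MT-TN (ENSG00000210135), the asparagine tRNA, had 637, 53 and 1332 reads in control and 546 and 1056 after knockdown, or 950.4, 373 and 931 RPKM and 805 and 952 RPKM. Control replicate 2 lay below the other 4 libraries. MT-TP (ENSG00000210196), the proline tRNA next to the control region, was at 996, 883 and 675 RPKM in control and 1229 and 1038 RPKM in knockdown. Both knockdown libraries lay above all controls, with a limma adjusted p of 0.726. The log2 difference of 0.43 (SE 0.27) ran from 0.27 (without control replicate 3) to 0.55 (without control replicate 1). MT-TC (ENSG00000210140), the cysteine tRNA, was at 406, 69.97 and 678 RPKM in control and 416 and 363 RPKM in knockdown, so that both knockdown libraries lay inside the spread of the controls. MT-TA (ENSG00000210127), the alanine tRNA, was at 152, 1643 and 21.4 RPKM in control and 82.6 and 72.5 RPKM in knockdown. In control replicate 2 it had 221 reads, 43.8% of that library's tRNA reads, against 29 to 96 reads in the deeper libraries. The limma log2 differences were 0.34 (SE 0.47) for MT-TN, 0.53 (SE 0.96) for MT-TC and -1.18 (SE 1.73) for MT-TA. Without control replicate 2 all 3 changed sign, to -0.10, -0.43 and 0.43.

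The other 18 tRNA genes had 0 to 66 reads per library, and no fold is given for them. MT-TR, the arginine tRNA, had 4, 0 and 17 reads in control and 12 and 22 in knockdown, with a limma adjusted p of 0.714. Scaled to length and depth, MT-TR was above every control in both knockdown libraries, at 19.9 and 22.3 RPKM against 6.70, 0 and 13.3 RPKM. Reads were found for 18, 14 and 21 tRNA genes in control replicates 1, 2 and 3 and for 20 and 22 in knockdown.

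**Figure D5:**
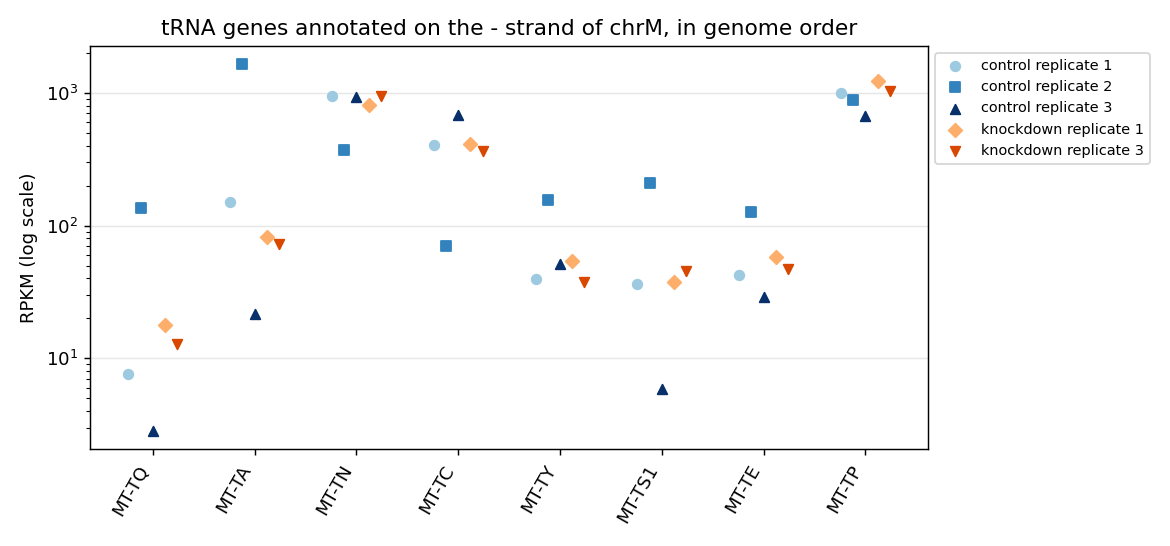
RPKM on a log axis for the 8 tRNA genes annotated on the - strand of chrM, in genome order (x axis), 1 point per library. Control replicate 2 (squares) is the highest library for MT-TQ, MT-TA, MT-TY, MT-TS1 and MT-TE and the lowest for MT-TN and MT-TC, and the knockdown points top the controls for MT-TP.

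Nuclear copies of mitochondrial genes, stretches of mitochondrial DNA inserted into chromosomes, can take reads from members. Of 407 annotated copies, 292 had no read in any of the 5 libraries. The copies held 0.405, 1.33 and 0.161% of assigned reads in control and 0.411 and 0.341% in knockdown, so control replicate 2 was the highest here too. Per 100 reads on mitochondrial mRNA genes, copies had 6.35, 14.1 and 3.89 reads in control and 5.78 and 5.13 in knockdown. The 3 copies with most reads lie together on chromosome 1. MTCO1P12 (ENSG00000237973, from 631074 to 632616) is 98.7% identical to MT-CO1 and had 9.51, 28.5 and 4.59 reads per 100 MT-CO1 reads in control and 8.91 and 8.02 in knockdown. MTND2P28 (ENSG00000225630, from 629640 to 630683) is 98.4% identical to MT-ND2 and had 32.7, 40.3 and 23.8 reads per 100 in control and 30.6 and 22.3 in knockdown. MTATP6P1 (from 633696 to 634376) had 23.9, 32.6 and 18.4 reads per 100 MT-ATP6 reads in control and 21.7 and 20.04 in knockdown. Control replicate 2 was the highest and control replicate 3 the lowest or next to lowest for all 3 copies. Of 21 copies tested 0 were called in limma, and 3 were above 0, with a median log2 difference of -0.41. The median was 0.98 over the 19 tested without control replicate 2, so its sign rests on that library. The part of read assignment between copies and members in their levels was not tested.

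Nuclear genes that make, process and translate mitochondrial RNA were described from lists, by counts and medians beside those of all genes, of which 7701 of 15408 were above 0. None of the lists had a called member in limma. Of 14 tested genes of mitochondrial transcription and its regulators, 6 were above 0, with a median of -0.090 (-0.21 without control replicate 2). Of 25 RNA processing, stability and decay genes, 6 were above 0, with a median of -0.18 (-0.27 without control replicate 2). Among 19 aminoacyl-tRNA synthetases 7 were above 0, with a median of -0.11 (-0.21 without control replicate 2). For 15 genes of mitochondrial DNA replication 6 were above 0, with a median of -0.006 (-0.10 without control replicate 2). For 14 genes of tRNA modification these values were 6 and -0.056 (-0.15 without control replicate 2), and for 19 translation factors 9 and -0.017 (-0.069 without control replicate 2). Each of these 6 lists held 1 gene at an unadjusted p under 0.05 that was lower in knockdown, and 0 that were higher. Over all genes tested in limma the shares were 2.54% lower and 3.8% higher. The 77 mitochondrial ribosomal proteins had 52 members above 0 and a median of 0.08, which was -0.07 without control replicate 2.

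In each of these 7 lists the 2 genes of smallest unadjusted p are named, none of which passed (limma adjusted p from 0.71 to 0.73). ELAC2, the nuclease that cuts the 3′ end of mitochondrial tRNAs, averaged 25.9 ± 1.65 RPKM over the controls (SD, n = 3) against 18.9 ± 0.242 RPKM after knockdown (SD, n = 2), which is a log2 difference of -0.45 (SE 0.14). PPRC1, a coactivator of nuclear genes for mitochondria, averaged 10.1 ± 0.531 RPKM over the controls (SD, n = 3) against 6.47 ± 0.784 RPKM after knockdown (SD, n = 2), which is a difference of -0.61 (SE 0.16). For both of them the knockdown libraries lay below every control, as for 13.6% of all genes tested. Picking genes by small p favours such separation. POLG, the catalytic subunit of the mitochondrial DNA polymerase, averaged 7.33 ± 0.450 RPKM over the controls (SD, n = 3) against 4.80 ± 1.47 RPKM after knockdown (SD, n = 2). LARS2, which charges the leucine tRNAs, averaged 6.42 ± 0.950 RPKM over the controls (SD, n = 3) against 3.78 ± 0.596 RPKM after knockdown (SD, n = 2), which is a difference of -0.69 (SE 0.20). GFM1, an elongation factor of the mitochondrial ribosome, averaged 3.62 ± 0.489 RPKM over the controls (SD, n = 3) against 1.92 ± 0.450 RPKM after knockdown (SD, n = 2), which is a difference of -0.77 (SE 0.22). QTRT2, a subunit of the enzyme that adds queuosine to tRNAs, differed by -0.55 (SE 0.22). The next in these lists had log2 differences below 0 as well. They were FASTKD2 (-0.43, SE 0.19), NRF1 (-0.25, SE 0.16), TOP3A (-0.33, SE 0.18), EARS2 (-0.46, SE 0.20), GFM2 (-0.40, SE 0.17) and MTO1 (-0.36, SE 0.19). Among ribosomal proteins MRPL35 (-0.38, SE 0.18) and MRPL14 (0.59, SE 0.29) lay on either side of 0.

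The nuclear subunits of the same complexes were set beside the mitochondrial ones. For complex I, the summed RPKM of the 7 mitochondrial genes was 26052, 37662 and 17646 in control and 33250.5 and 27666 in knockdown. That of the 37 nuclear genes was 1740.2, 1403 and 1092 in control and 1542 and 1849 in knockdown. Control replicate 3 was the lowest library in both sums, while control replicate 2 was the highest in the mitochondrial sum and not in the nuclear one. Of 35 nuclear complex I subunits tested, 31 were above 0, with a median of 0.24 (0.20 without control replicate 2). The nuclear subunits of complexes III, IV and V had medians of 0.19, 0.41 and 0.20, with 5 of 9, 10 of 11 and 13 of 17 above 0. Without control replicate 2 the medians of complexes III, IV and V were 0.17, 0.29 and 0.15. Complex II, which has no mitochondrially encoded subunit, had 2 of 4 above 0 and a median of 0.01, or -0.21 without control replicate 2. Of each, the 2 genes of smallest p by limma had these log2 differences: NDUFA3 (1.44, SE 0.61) and NDUFB9 (0.46, SE 0.22) in complex I, SDHC (-0.24, SE 0.14) and SDHA (-0.05, SE 0.15) in complex II, and UQCRB (0.44, SE 0.27) and UQCRQ (0.51, SE 0.31) in complex III. For complex IV they were COX4I1 (0.48, SE 0.24) and COX7A2 (0.46, SE 0.27), and for complex V ATP5MC2 (0.27, SE 0.17) and ATP5PD (0.44, SE 0.33). No nuclear subunit was called in limma, and 0 had an unadjusted p under 0.05, beside 3.8% of all genes higher and 2.54% lower.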

How the data were processed

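RNA was sequenced from 3 control and 3 knockdown libraries. The authors deposited 1 table of RPKM values, per the labels, and HISAT2 and GRCh38 are named per the submitters' processing notes. The counter, its annotation and its use of strand are, for these files, not given in the sources used here. Each of the 58676 IDs was found in GENCODE release 29. In 5 libraries the product of RPKM and exon length gave whole reads for 100% of values (tolerance 0.002 of a read). In knockdown replicate 2 it was so for 0.42%, and its rank correlation with the others was 0.017 to 0.019, so it was left out.

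limma 3.58.1 (R 4.3.3, mean-variance trend) was fitted to log2(RPKM + 0.5) for genes that reached 0.5 RPKM in 3 or more of the 5 libraries, two-sided, with Benjamini-Hochberg adjustment over all genes. Such differences understate changes of low genes. The code was tested on simulated data with large fold changes only. That test does not show how small a change these 5 libraries could reveal. Copies were aligned to members with Biopython 1.88. The members and lists were chosen with earlier results of these data known. The rule for named genes took all mRNA and rRNA genes, the 4 tRNA genes and 3 copies of most reads, and in each pathway list the genes called or else up to 2 of smallest unadjusted p. Alternatives were pseudocounts of 0.1 and 1, filters, scalings, no trend, a replicate block, all 6 columns and leaving out each library. limma voom on recovered reads was added after seeing the data.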

Additional observations from a re-analysis of the deposited data

How the results depend on the processing

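Members called stayed at 0 under all alternatives run other than the replicate block, with lowest adjusted p values of a member from 0.444 (voom) to 1 (no filter). Libraries of the same replicate number showed little shared deviation (correlation of deviations -0.17 for replicate 1 and 0.018 for replicate 3). With 2 knockdown libraries this cannot settle whether the numbers pair them. With the number as a replicate block, control replicate 2 has no partner and drops out, 1 residual degree of freedom is left, and 33 genes were called higher and 7 lower. Of members, 2 were called by limma in this fit, MT-TQ (adjusted p = 0.0280) and MT-TK (adjusted p = 0.0306). In the libraries that remain, MT-TQ had 4 to 14 reads and MT-TK 0 to 8. Differences that changed sign with the replicate block were 0.16 for MT-CO1, 0.32 for MT-ATP8, 0.094 for MT-ND5, -0.10 for MT-TN, -0.43 for MT-TC, 0.43 for MT-TA. In voom, MT-TC was at -0.037. With all 6 columns as deposited, including the column out of gene order, the median over mRNA genes was -3.93 and that of all genes -0.91, and the values were -3.66 for MT-RNR1, -4.16 for MT-RNR2, -3.90 for MT-ND1, -3.93 for MT-ND2, -4.65 for MT-CO2, -4.21 for MT-ATP6, -4.30 for MT-CO3, -3.41 for MT-ND3, -3.22 for MT-ND4L, -3.38 for MT-ND4, -3.99 for MT-ND6, -3.37 for MT-CYB, -1.74 for MT-TN, -2.75 for MT-TP, -2.67 for MT-TC. The other scalings moved the median of all genes to at most 0.016. Leaving out each library gave -0.33 to 0.16 for MT-CO1, -0.19 to 0.63 for MT-CO2, -1.51 to 0.32 for MT-ATP8, -0.043 to 0.67 for MT-ATP6, -0.47 to 0.58 for MT-ND4L, -0.11 to 0.72 for MT-ND4, -0.38 to 0.13 for MT-ND5, -0.14 to 0.47 for MT-CYB, -0.10 to 0.57 for MT-TN, -0.43 to 1.20 for MT-TC, -2.68 to 0.43 for MT-TA, -0.38 to 0.14 for MT-ND4L over MT-ND4, 0.12 to 0.85 for MT-ND6 over MT-ND5. The cause of the changes of sign on leaving out a library was not tested. Low tRNA read counts limit what these libraries can show.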

Other observations

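MTRNR2L12 and MTRNR2L8, nuclear genes that resemble the rRNA gene MT-RNR2, were looked at after their values were seen. MTRNR2L12 had 130, 329 and 67 reads in control replicates 1, 2 and 3 and 162 and 199 in knockdown replicates 1 and 3. MTRNR2L8 had 84, 209 and 38 reads in control and 97 and 138 in knockdown. For both, control replicate 2 had the most reads although it is the shallowest library. MT-RNR2 itself had its fewest reads there, 15625, which is 5143 RPKM and within the range of the other controls. By their symbols both genes are also counted among the 407 annotated copies.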
